A study of Mus musculus with 2 samples.

Results

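CD8 T cells that carried RNA of Pdcd1, the gene for the inhibitory receptor PD-1, were examined in tumours of LLC, the mouse Lewis lung carcinoma line, grown in Dusp2-/- mice (KO) and in wild-type mice (WT). Each genotype was 1 library of single cells, from the Chromium Next GEM 3' kit v3.1 of 10x, of cells labelled as tumour-infiltrating lymphocytes. The sources used here do not give ages, sorting, pooling of animals or the deleted part of Dusp2, and the labels give the molecule as polyA RNA for KO and total RNA for WT. The cells were chosen by measured UMIs (counted RNA molecules). A cell counted as a PD-1 RNA cell when it had at least 2 UMIs of Cd8a and Cd8b1 together, at least 1 of Cd3d, Cd3e and Cd3g and at least 1 of Pdcd1, with no UMI of Cd4, Foxp3 or Cd79a and fewer than 5 of the macrophage gene Lyz2. This gave 138 KO cells and 306 WT cells, 444 of the 22401 cells of the series with at least 200 genes and at most 20% mitochondrial UMIs. With 1 library per genotype no difference has a replicate check, no test was made, and genotype cannot be told apart from animal, tumour or library preparation.

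PD-1 is switched on in T cells by signals through the antigen receptor and stays on where antigen persists, as in tumours. CD8 T cells that keep PD-1 in tumours are known as exhausted or dysfunctional, with Tox as a driving transcription factor and further inhibitory receptors beside PD-1, but recently activated and tissue-resident CD8 T cells carry PD-1 as well. Dusp2 encodes a nuclear phosphatase of MAP kinases that activated T cells induce early.

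The marker genes fitted the label in both libraries. The gate itself required UMIs of Cd8a or Cd8b1 and of a Cd3 gene, so their presence is no check. Of the genes given here, only Trac and Trdc were not part of the gate. Levels are given in CPM, the UMIs of a gene per 1000000 UMIs of all PD-1 RNA cells of a library, from 1126459 UMIs in KO and 2192995 in WT. Cd3e, an invariant chain of the T cell receptor complex, had 647 CPM in KO and 696 in WT, Cd8a 545 in KO and 570 in WT, and Cd8b1 908 in KO and 607 in WT. Trac, the constant region of the alpha chain, was found in 92.0% of the KO cells and 94.8% of the WT cells, and Trdc, that of the delta chain, in 2.90% and 1.96%. Median depths were 6852 UMIs per cell in KO and 5737 in WT. The libraries shared 31 cell barcodes, and none of them belonged to a PD-1 RNA cell in both.

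RNA of other cell types was present and differed between the libraries. Igkc, an antibody gene, was found in 95.7% of KO and 0.980% of WT PD-1 RNA cells, and the 6 plasma cell markers together had 720 CPM in KO and 19.6 in WT. The 11 macrophage markers together had 302 CPM in KO and 403 in WT, with 8 of the 9 measured ones lower in KO, 5 of them at least 2-fold. A UMI of C1qa, C1qb or C1qc was found in 23.2% of KO and 48.0% of WT PD-1 RNA cells, and Lyz2 in 37.7% of KO and 60.5% of WT. The 9 B cell markers together had 779 CPM in KO and 364 in WT, nearly all from Cd74, with 1 of them at 0 in KO and 6 at 0 in WT. The 7 NK cell markers had 211 CPM in KO and 178 in WT, and the 6 neutrophil markers 7.10 in KO and 3.19 in WT. The 7 tumour and stroma markers together had 330 CPM in KO and 126 in WT. Of that tumour RNA, 89.0% in KO lay in 4 cells and 62.7% in WT in 3 cells, each with at least 10 such UMIs and, over both libraries, 15127 to 50518 UMIs in total. Values without them are given for part of the results below. Without them 990713 of 1126459 KO and 2112287 of 2192995 WT UMIs remain. Such cells thus weigh more on the KO levels.

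Among CD8 T cells that met every other condition, PD-1 RNA was found in 138 of 600 KO cells (23%, 95% exact binomial interval 19.7 to 26.6) and 306 of 425 WT cells (72.0%, 67.5 to 76.2). Intervals here and below are 95% and cover counting error only. Since a UMI is found more often in deeper cells, each cell was also thinned to 2000 UMIs, which left out 73 KO and 5 WT cells. Of the remaining 527 KO cells 16.1% had Pdcd1 (13.1 to 19.6), against 55.0% of the 420 remaining WT cells (50.1 to 59.8). Of all kept cells, PD-1 RNA cells were 1.09% in KO and 3.13% in WT. Pdcd1 was rare in cells gated as macrophages, found in 0.649% of KO and 1.04% of WT cells, at median depths of 6821 and 9930 UMIs. It was found in 0.235% of 1702 KO B cells, while the WT B cell gate held only 4 cells. In gated NK cells it was found in 12.5% of KO and 9.57% of WT cells.

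Within the PD-1 RNA cells the KO cells also held less Pdcd1 each, which the gate itself bounds only from below. The level was 387 CPM (352 to 425) in KO and 674 (640 to 710) in WT. The median was 2 UMIs per KO cell and 4 per WT cell, and the highest cell had 15 in KO and 31 in WT. Cells with a single Pdcd1 UMI, just inside the gate, were 34.8% of the KO cells and 17.3% of the WT cells, while 31.2% of KO and 55.9% of WT cells had 4 or more. Pdcd1 lies on the minus strand of mouse chromosome 1 from base 94038305 to 94052553 (mm10/GRCm38, GENCODE M21). Just outside the gate, 14 KO and 18 WT cells had 1 UMI of Cd8a and Cd8b1, against 7 KO and 19 WT members with exactly 2, and 4 KO and 17 WT cells had 5 or more Lyz2 UMIs. Of cells that met the conditions on Cd8, Cd3, Cd4 and Foxp3, 630 of 740 in KO and 448 of 451 in WT had no Cd79a UMI. Whether the Pdcd1 share depends on this step was not tested. These values follow from the selection and are a description.

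**Figure D1:**
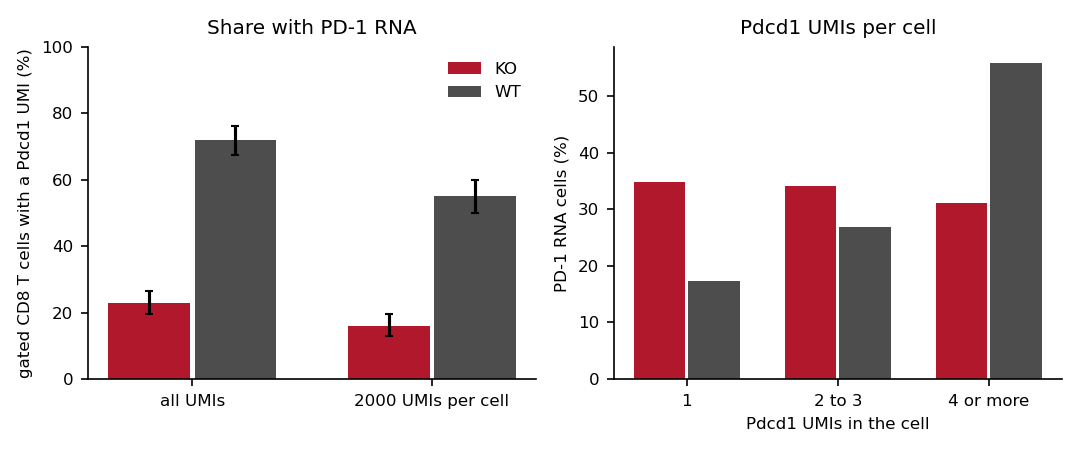
Left, percent of gated CD8 T cells with a Pdcd1 UMI in the KO and WT library, from full counts and from cells cut down to 2000 UMIs (bars, share; lines, 95% exact binomial interval). Right, percent of PD-1 RNA cells with 1, 2 to 3, or 4 or more Pdcd1 UMIs. The share was lower in KO at both depths (23% against 72.0%, and 16.1% against 55.0%), and cells with 4 or more Pdcd1 UMIs were 31.2% in KO and 55.9% in WT.

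The targeted gene was nearly absent from the KO cells. Dusp2 (chromosome 2, plus strand, 127336159 to 127338376) had 19 UMIs in the 138 KO cells and 1277 in the 306 WT cells, or 16.9 and 582 CPM, log2 KO over WT -5.11 (-5.85 to -4.46). A single KO cell held 15 of the 19 UMIs, and the 4 KO cells rich in tumour RNA held 16. Without those cells and their 3 WT counterparts Dusp2 stood at 3.03 CPM in KO and 598 in WT, log2 -7.63. At 2000 UMIs per cell it was found in 0.775% of KO and 59.9% of WT PD-1 RNA cells.

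Of 4746 well-covered genes (mean level 30 CPM or more, and 50 UMIs or more in one of the libraries), 75 (1.58%) were at least 2-fold higher in KO and 173 (3.65%) at least 2-fold lower, 5.23% in either direction, and the median log2 ratio was -0.05. Without the cells rich in tumour RNA 35 were higher and 164 lower. The 12 genes per direction whose interval lay farthest from 0 are named here.

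Gzma and Ifitm1 led the higher genes. Gzma encodes granzyme A, a protease that killer cells deliver into their targets (chromosome 13, minus strand, 113093825 to 113100981), and had 1474 CPM in KO and 119 in WT, log2 3.63 (3.44 to 3.82). Without the cells above the 90th percentile of UMIs its ratio was 2.59. Ifitm1, an interferon-induced membrane protein, had 2811 CPM in KO and 352 in WT, log2 3.0 (2.88 to 3.11). It was also higher in KO in gated NK cells, with 485 CPM in KO and 52.6 in WT, log2 3.2 (2.80 to 3.63), where Gzma was lower at -0.49 (-0.59 to -0.39). Itgae, the CD103 chain of an integrin that binds E-cadherin (chromosome 11, plus strand, 73090583 to 73147446), had 79.9 CPM in KO and 13.2 in WT, log2 2.59 (1.98 to 3.25). Rasgrp2, an activator of the small GTPase Rap1, had 86.1 CPM in KO and 17.3 in WT, log2 2.31 (1.76 to 2.89). These 4 genes stayed among the leading 12 when the cells rich in tumour RNA were left out, with log2 ratios of 3.75, 3.11, 2.73 and 2.38. Without the cells above the 90th percentile of UMIs, 2 of the 12 higher and 8 of the 12 lower genes were named again. The 2 higher ones were Ifitm1 and Gzma, so Itgae and Rasgrp2 lost their place. This step left out 31 KO and 40 WT cells, and 576465 KO and 1516527 WT UMIs remained.

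The other 8 higher genes lay mostly in the 4 KO cells rich in tumour RNA. They held 91.5% of the KO UMIs of the chemokine Ccl2, 89.2% of those of the chemokine Cxcl1, 97.2% of those of the guidance factor Sema3a, 86.0% of those of Igfbp4, a binding protein of insulin-like growth factors, and 85.5% of those of Serpinh1, a collagen chaperone. For the microtubule protein Map1b the share was 80.0%, for Samd4 72.9% and for Spp1, which encodes osteopontin, 72.1%. Without these cells Ccl2 stood at -0.53 (-0.99 to -0.08) and Sema3a at -1.37 (-4.58 to 0.83). The other 6 kept ratios above 0, Map1b at 2.47 (0.89 to 4.31), Samd4 at 1.63 (0.43 to 2.89), Serpinh1 at 1.61 (0.07 to 3.24), Spp1 at 0.91 (0.47 to 1.35), Cxcl1 at 0.85 (0.35 to 1.34) and Igfbp4 at 0.55 (-0.15 to 1.25), whose interval includes 0. The places of these 8 were then taken by Ass1, an enzyme of arginine synthesis (log2 1.97), the ganglioside synthase St8sia1 (1.73), Rrm2, a subunit of ribonucleotide reductase (1.72), Cst3, a cysteine protease inhibitor (1.69, but -0.26 over all cells with 2 or more Pdcd1 UMIs), Ifitm2 (1.62), the nuclear lamina gene Lmna (1.44), Ly6a (1.29) and Gzmb (1.21).

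Of the 12 genes named as lower in KO, 10 were named again without those cells, and Dusp2 among them had a lower ratio then, as given above. Serpinb9b, a relative of the granzyme B inhibitor Serpinb9, had 0 UMIs in KO and 160 in WT and was at least 27.4-fold lower against a floor of 3 UMIs. Klrh1, a lectin-type receptor, had 1 UMI in KO and 215 in WT, log2 -6.79 (-12.1 to -4.29). Gldc, an enzyme of glycine breakdown, had 6.21 CPM in KO and 95.8 in WT (log2 -3.95). Creb3l2, a transcription factor of secretory stress, had 32.0 CPM in KO and 190 in WT (-2.57), and the immediate-early gene Ier5l had 23.1 in KO and 145 in WT (-2.66). St6galnac3, a sialyltransferase, had 70.1 CPM in KO and 352 in WT (-2.33). Ccrl2, an atypical chemokine receptor, Gzme, Bend4 and Serpine2 stood between -3.0 and -2.30. Some of these genes lay in few WT cells. Without the cells rich in tumour RNA 303 WT cells remained. Serpinb9b was found in 20 of them, Klrh1 in 33 and Gzme in 20, against 142 for Creb3l2 and 133 for Ier5l. Cmss1 had 920 CPM in KO and 3815 in WT (-2.05), but was also lower in KO in CD8 T cells without Pdcd1 (-1.65), in gated NK cells (-1.61) and in gated macrophages (-0.61).

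**Figure D2:**
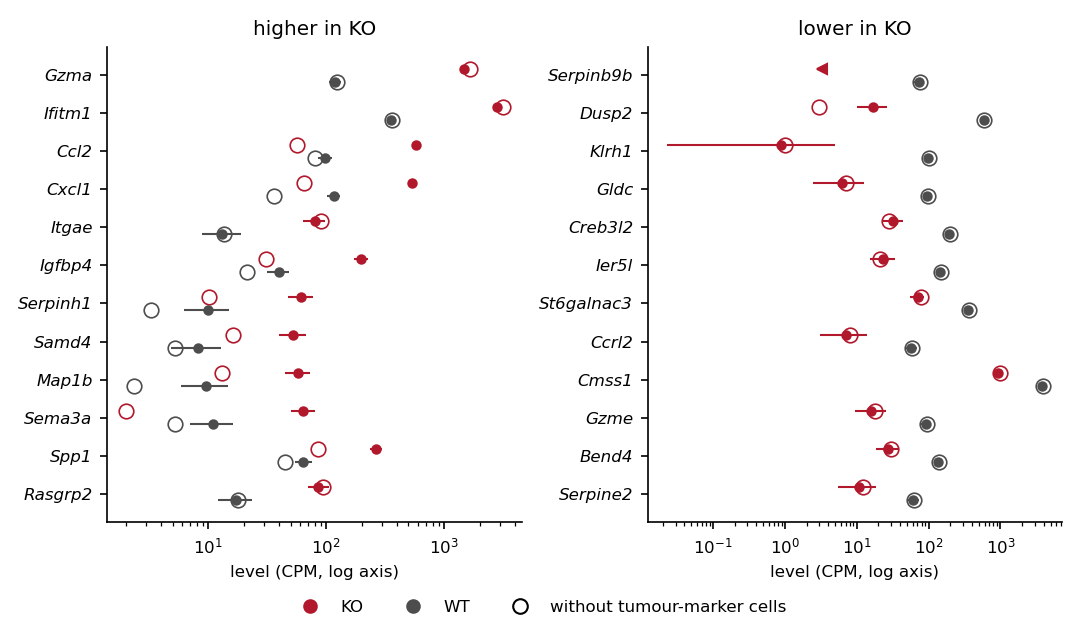
Levels in CPM (log axis) of the 12 genes per direction whose KO over WT interval lay farthest from 0, in KO (red) and WT (grey) PD-1 RNA cells. Filled points with lines are the level and its 95% Poisson interval, the triangle for Serpinb9b is the upper interval bound of a gene with 0 KO UMIs, and open circles are the levels without the 4 KO and 3 WT cells rich in tumour RNA. Gzma, Ifitm1, Itgae and Rasgrp2 kept their place without those cells, whereas the KO levels of Ccl2, Cxcl1 and Sema3a dropped.

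Granule genes, which arm killer cells, split by member. Of 18 measured genes 8 were higher and 10 lower in KO, with 3 at least 2-fold higher and 3 at least 2-fold lower and a median of -0.27. The sign of this median changed to 0.24 when cells were thinned to 2000 UMIs before gating, and to 0.02 when each cell had the same weight. Over all 8889 genes with at least 20 UMIs, 4.54% were at least 2-fold higher and 5.86% at least 2-fold lower, 10.4% in either direction, and 53.6% were lower by any amount, with a median of -0.04. Gzmb, granzyme B, had 1877 CPM in KO and 868 in WT, log2 1.11 (1.02 to 1.20), and at 2000 UMIs was found in 72.9% of the KO cells (64.3 to 80.3) and 54.6% of the WT cells (48.8 to 60.3). Prf1, the pore-forming perforin, had 149 CPM in KO and 230 in WT, log2 -0.62 (-0.88 to -0.37) but 0.07 with cells thinned before gating, and Nkg7, a granule membrane protein, 1473 in KO and 1856 in WT (-0.33). Gzmk, granzyme K, had 95.9 CPM in KO and 80.3 in WT, log2 0.26 (-0.10 to 0.61), an interval that includes 0. Gzmd was at -1.89 (0.73 with cells thinned before gating) and Gzme at -2.51, while Gzmc was at 0.67. Granzymes C to F are close relatives in a gene cluster, so reads may be split among them. 

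Inhibitory receptors other than PD-1 were mostly at lower levels in KO. Of 13 measured ones 3 were higher and 10 lower, 4 of them at least 2-fold lower, with a median of -0.48. Entpd1, the ectoenzyme CD39, had 20.4 CPM in KO and 73.4 in WT, log2 -1.85 (-2.54 to -1.21). Cd200r1, the receptor of CD200, had 9.77 in KO and 38.3 in WT, log2 -1.97 (-3.03 to -1.06). Cd244a was at -1.62 and Cd38 at -1.31, each from 6 KO UMIs. Ctla4 had 217 CPM in KO and 353 in WT (-0.70), Tigit 13.3 in KO and 25.5 in WT (-0.94), and Lag3 96.8 in KO and 135 in WT (-0.48). Havcr2, the gene for TIM-3, had 102 CPM in KO and 82.5 in WT, log2 0.31 (-0.04 to 0.65), and Cd101 48.8 in KO and 31.9 in WT, log2 0.61 (0.08 to 1.14), so the receptors did not differ in 1 direction. Havcr2 was also found in 26.3% of KO and 32.2% of WT cells gated as macrophages. PD-1 RNA cells carried macrophage RNA more often in WT, as given above. Its part in the ratios of these receptors and of the transcription factors below was not tested. Counting how many of Lag3, Havcr2, Tigit and Ctla4 a cell showed at 2000 UMIs, none was seen in 55.8% of the KO cells (46.8 to 64.5) and 37.5% of the WT cells (32.0 to 43.2), and 2 were seen in 9.30% of the KO and 16.8% of the WT cells.

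Transcription factors of exhaustion and effector function were mostly lower as well, with 4 of 18 higher and 14 lower in KO, 1 at least 2-fold higher and 4 at least 2-fold lower, and a median of -0.51. Without the cells rich in tumour RNA the median was -0.38. Tox (chromosome 4, minus strand, 6686353 to 6991557) had 115 CPM in KO and 323 in WT, log2 -1.48 (-1.77 to -1.21). At 2000 UMIs it was found in 10.9% of the KO cells (6.06 to 17.5) and 36.5% of the WT cells (31.1 to 42.2), against 0.611% of KO and 0.291% of WT macrophages. The orphan receptors Nr4a2 and Nr4a3, induced by antigen receptor signals, stood at -1.16 (117 CPM in KO, 261 in WT) and -1.20 (52.4 in KO, 120 in WT). Their relative Nr4a1 was at -0.38 (-1.07 to 0.27). Ikzf2, which encodes Helios, had 328 CPM in KO and 732 in WT (-1.16), and Zeb2, a factor of terminal effector cells, 189 in KO and 360 in WT (-0.93). Id2, a factor that effector and resident cells need, was at 0.43 with 1267 CPM in KO and 939 in WT, and Maf, at 1.24 from 17 KO and 14 WT UMIs, was the 1 gene past 2-fold on the higher side.

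Genes of progenitor and memory T cells were more often higher in KO, 12 of 18 against 6 lower, median 0.45, with 1 past 2-fold in each direction. Il7r, the receptor of the survival factor interleukin 7, had 293 CPM in KO and 166 in WT, log2 0.82 (0.60 to 1.04). Tcf7, the TCF-1 factor of progenitor exhausted cells, had 58.6 CPM in KO and 40.6 in WT, log2 0.53 (0.05 to 1.01) but -0.21 with cells thinned before gating, and Slamf6, their surface marker, 24.0 in KO and 14.6 in WT (0.72). Bach2, a repressor that restrains effector differentiation, ran the other way with 257 CPM in KO and 707 in WT, log2 -1.46 (-1.65 to -1.28). Id3 was at 2.36, but 38 of its 66 KO UMIs lay in 1 cell, and without the cells rich in tumour RNA it was at 0.41. At 2000 UMIs, cells with Tcf7 and without Havcr2 were 10.1% of the KO cells (5.48 to 16.6) and 6.58% of the WT cells (4.06 to 9.98), and cells with Havcr2 and without Tcf7 were 11.6% of the KO cells (6.66 to 18.5) and 14.8% of the WT cells (11.0 to 19.3), so both pairs of intervals overlapped.

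**Figure D3:**
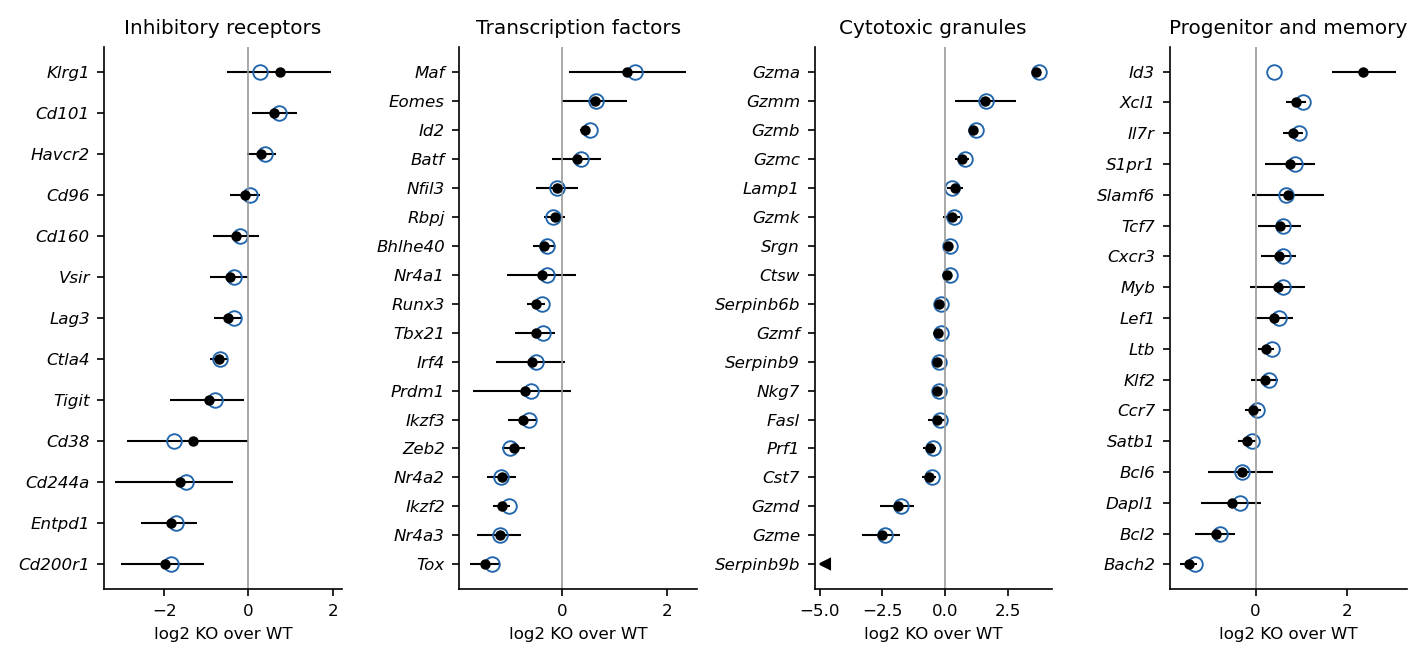
Log2 KO over WT of the measured inhibitory receptors, transcription factors, granule genes and progenitor or memory genes (1 of the last group is not drawn) in PD-1 RNA cells (black points with 95% exact intervals; the triangle for Serpinb9b is a bound). Open blue circles are the ratios without the 4 KO and 3 WT cells rich in tumour RNA. Most receptors and transcription factors lie below 0, the granule genes run from 3.63 for Gzma to the bound for Serpinb9b, and Id3 is the gene whose circle lies farthest from its point.

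Among 14 measured cytokines and chemokines 10 were higher and 4 lower in KO, 4 of them at least 2-fold higher and 1 at least 2-fold lower, with a median of 0.58. Without the cells rich in tumour RNA 2 of 13 measured ones were at least 2-fold higher, with a median of 0.47. Xcl1, which attracts cross-presenting dendritic cells, had 301 CPM in KO and 162 in WT (0.89). Ifng, the gene for interferon gamma, had 209 CPM in KO and 162 in WT, log2 0.36 (0.12 to 0.60), and Tnf 57.7 in KO and 31.9 in WT, log2 0.85 (0.34 to 1.36). Csf1, the macrophage growth factor, was at 1.34, or 0.99 without the cells rich in tumour RNA, and Csf2, the growth factor GM-CSF, at 2.77 from 21 KO and 6 WT UMIs. Ccl5, the most abundant chemokine, had 2360 CPM in KO and 4508 in WT, log2 -0.93 (-1.0 to -0.87), so the largest part of the chemokine RNA was lower in KO while most members were higher.

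The homing and residence genes farthest from 0 were the integrin genes Itgae, Itga4 and Itgb7, while the integrin gene Itgb1 was at 0.24. Beside Itgae, its partner chain Itgb7 had 217 CPM in KO and 87.6 in WT, log2 1.31 (1.03 to 1.59). Itga4, the alpha 4 chain that pairs with Itgb1 or Itgb7, had 47.9 CPM in KO and 190 in WT, log2 -1.98 (-2.42 to -1.57), so the alpha chains of the beta 7 integrins differed in opposite directions. Cxcr6, a receptor of resident CD8 T cells, had 763 CPM in KO and 673 in WT (0.18), and Cd69, which holds cells in tissue, 212 in KO and 178 in WT (0.25). Of 17 measured genes of this list 11 were higher and 6 lower in KO, 2 past 2-fold in each direction, median 0.24. The 2 on the lower side were Itga4 and Rgs16, which is not an integrin gene.

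Genes that relay or limit the antigen receptor signal were mainly lower in KO, 19 of 22 against 3 higher, with 3 at least 2-fold lower and a median of -0.35. Without the cells rich in tumour RNA 17 were lower and 5 higher, median -0.26. The 3 genes at least 2-fold lower over all PD-1 RNA cells were Ubash3b, Cd5 and Cblb. Cblb, a ubiquitin ligase, had 433 CPM in KO and 1129 in WT, log2 -1.38 (-1.52 to -1.24). Cd5, a surface receptor that dampens the receptor complex, had 93.2 CPM in KO and 259 in WT, log2 -1.48 (-1.79 to -1.17), and Ubash3b, a phosphatase that acts on Zap70, had 56.8 in KO and 195 in WT, log2 -1.78 (-2.18 to -1.40). The kinase Lck (398 CPM in KO, 380 in WT) was at 0.07 (-0.10 to 0.23), and the adaptor Lat (321 in KO, 218 in WT) at 0.56. Among 12 measured co-stimulatory receptors 10 were lower and 2 higher in KO, median -0.49. Tnfrsf4 (OX40) had 88.8 CPM in KO and 226 in WT (-1.35), Tnfrsf9 (4-1BB), which marks cells that recently met antigen, 661 in KO and 879 in WT (-0.41), and Slamf7 was higher with 110 in KO and 62.0 in WT (0.83).

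The NFAT and calcineurin genes, which translate calcium signals into transcription, had a median of -0.33 with 4 of 19 higher and 15 lower. Nfatc1, the factor induced by its own pathway, had 62.1 CPM in KO and 128 in WT, log2 -1.04 (-1.44 to -0.66), and was the only measured member past 2-fold. Without the cells rich in tumour RNA it was at -0.90. Nfatc2 was at -0.14 (-0.79 to 0.47) and Nfatc3 at -0.33 (-0.64 to -0.03). Immediate-early genes of the ERK and AP-1 pathways had 8 of 19 higher and 11 lower and a median of -0.19. Without the cells rich in tumour RNA 3 were higher and 16 lower and the median was -0.41. Myc was at 1.56, with 142 of its 174 KO UMIs in a single cell, and at 0.40 without those cells. Fosl2, an AP-1 subunit, had 53.3 CPM in KO and 161 in WT, log2 -1.59 (-2.01 to -1.19), and Egr1 25.7 in KO and 52.4 in WT (-1.03). Of 9 other MAP kinase phosphatases 2 were higher and 7 lower, median -0.34, with Dusp5, which acts on ERK in the nucleus, at 294 CPM in KO and 373 in WT (-0.34) and Dusp1 at 64.8 in KO and 124 in WT (-0.93). NK-type receptors had a median of -0.23 with 4 of 11 higher and 7 lower. Il2rb, the shared receptor chain of interleukins 2 and 15, was at -0.87.

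Type I interferon response genes differed in both directions. Of 38 measured genes 23 were higher and 15 lower in KO, with 5 at least 2-fold higher and 4 at least 2-fold lower and a median of 0.21. With each cell given the same weight the median was -0.01. Ifitm1, Ifitm2 (982 CPM in KO, 344 in WT, log2 1.51), Ifitm3 (376 in KO, 158 in WT, 1.25) and Ly6a (677 in KO, 279 in WT, 1.28), an antigen of activated T cells, stood apart on the higher side. The response genes Isg15 (123 CPM in KO, 101 in WT) and Irf7 (40.8 in KO, 37.8 in WT) were at 0.29 (-0.03 to 0.60) and 0.11 (-0.44 to 0.65). The 4 genes at least 2-fold lower were Ddx60, Rsad2, Mx1 and Ifi27l2a. Ifi27l2a had 183 CPM in KO and 409 in WT, log2 -1.16 (-1.39 to -0.94).

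The Ifitm genes lie close together on chromosome 7, and their promoters are shown because these 3 genes are among the 4 with the highest ratios of this list. The table holds no window for the other, Ly6a. The windows run from 250 bases before to 50 bases after the start that the promoter table gives, 5′ to 3′ on the gene's strand (RefSeq, GRCm38.p6). Ifitm1 is at chr7:140967826-140968125 (plus strand), Ifitm2 at chr7:140955912-140956211 (minus strand) and Ifitm3 at chr7:141010695-141010994 (minus strand). Capitals mark GAAA, any 2 bases, then GAAA again, a core of the interferon-stimulated response element, searched on both strands with overlaps allowed. In GENCODE M21 the Ifitm1 gene spans 140967221 to 140969825, so its window lies inside the gene, downstream of its outermost start.
Ifitm1: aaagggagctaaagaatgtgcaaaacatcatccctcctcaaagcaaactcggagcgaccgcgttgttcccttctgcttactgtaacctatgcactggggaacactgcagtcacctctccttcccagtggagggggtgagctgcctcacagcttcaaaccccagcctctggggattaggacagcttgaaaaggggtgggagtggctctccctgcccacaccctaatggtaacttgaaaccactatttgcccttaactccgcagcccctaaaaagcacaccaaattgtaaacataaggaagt
Ifitm2: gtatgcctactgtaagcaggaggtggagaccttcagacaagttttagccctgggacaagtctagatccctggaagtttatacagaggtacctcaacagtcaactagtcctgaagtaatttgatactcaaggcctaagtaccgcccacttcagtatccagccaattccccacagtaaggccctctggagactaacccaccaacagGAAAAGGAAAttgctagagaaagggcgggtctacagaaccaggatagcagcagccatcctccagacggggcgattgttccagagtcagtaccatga
Ifitm3: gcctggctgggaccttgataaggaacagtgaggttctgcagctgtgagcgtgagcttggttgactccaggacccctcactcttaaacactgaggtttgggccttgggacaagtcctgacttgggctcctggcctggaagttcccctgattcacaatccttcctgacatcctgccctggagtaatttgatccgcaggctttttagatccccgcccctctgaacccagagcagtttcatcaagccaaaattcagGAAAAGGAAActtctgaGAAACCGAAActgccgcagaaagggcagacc
The motif occurred 1 time in the Ifitm2 window, 2 times in the Ifitm3 window and not in the Ifitm1 window, which says only that these letters are not in that stretch and nothing of the sequence before the outermost start. It was in 3.44% of all 32851 promoter windows, and in any window of 19 of the 32 interferon response genes with a window in the table. Of 17 measured genes of the list with the motif 8 were higher and 9 lower in KO, median -0.01, and of 10 without it 9 were higher and 1 lower, median 0.40. The 10 include Ifitm1, whose window lies inside its gene, and the contrast was not tested.

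Cell cycle genes were higher in KO for 28 of 34 measured members, 2 of them at least 2-fold, median 0.50. Rrm2, which makes deoxynucleotides for DNA synthesis, had 162 CPM in KO and 50.2 in WT, log2 1.70 (1.35 to 2.05), and the replication helicase subunit Mcm3 111 in KO and 56.5 in WT (0.97). Mki67, a marker of dividing cells, had 202 CPM in KO and 164 in WT, log2 0.30 (0.05 to 0.54), and Cenpa, the centromeric histone, was lower with 209 in KO and 387 in WT (-0.89). The share of cells with Mki67 or Top2a at 2000 UMIs was 27.1% (19.7 to 35.7) in KO and 22.7% (18.1 to 27.8) in WT, and these intervals overlapped. The cell cycle median was 1.43 among the 86 KO and 121 WT cells without any Lyz2 UMI. Glycolysis and hypoxia genes (17 of 23 higher, median 0.20), respiratory chain genes (27 of 33, 0.13), class I presentation genes (11 of 17, 0.15) and heat shock genes (8 of 13, 0.26) had medians above that of all genes.

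Cells that paired granzyme B with Tox differed in share. At 2000 UMIs, Gzmb without Tox was found in 69.8% of the KO cells (61.1 to 77.5) and 37.8% of the WT cells (32.4 to 43.5), both genes together in 3.1% of the KO cells (0.851 to 7.75) and 16.8% of the WT cells (12.8 to 21.5), and Tox without Gzmb in 7.75% of the KO cells (3.78 to 13.8) and 19.7% of the WT cells (15.4 to 24.7). Ifitm1 was found in 67.4% of KO and 15.8% of WT cells, Gzma in 29.5% and 10.2%, and Itgae in 15.5% and 2.30%. In gated macrophages thinned the same way Gzmb was found in 0.509% of KO and 0.517% of WT cells, Gzma in 1.22% and 0.808% and Itgae in 0.102% and 0.162%, so these shares lay above the level of free RNA. Ifitm1 is expressed by macrophages themselves, at 27.4% of KO and 20.1% of WT cells.

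The number of Pdcd1 UMIs in a cell was tied to the level of some of these genes within each library, given here as a description. Tox had 25.8, 81.9 and 214 CPM in KO cells with 1, 2 to 3 and 4 or more Pdcd1 UMIs, against 202, 371 and 334 CPM in the WT cells. At each number of Pdcd1 UMIs the KO level was the lower. Lag3 had 37.3, 81.9 and 156 CPM in KO against 79.3, 132 and 147 in WT, and Tnfrsf9 had 358, 646 and 916 in KO against 479, 896 and 957 in WT, so the libraries lay close together in the cells with the most Pdcd1. Gzmb had 1702, 1722 and 2138 CPM in KO against 496, 664 and 1006 in WT, and Gzma 1467, 927 and 1908 in KO against 169, 172 and 93.2 in WT, higher in KO in every class. Median depth grew with the Pdcd1 number too, at 4814.5, 7020 and 8269 UMIs in KO and 4453, 4741.5 and 7051 in WT, and its part in these trends was not tested.

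**Figure D4:**
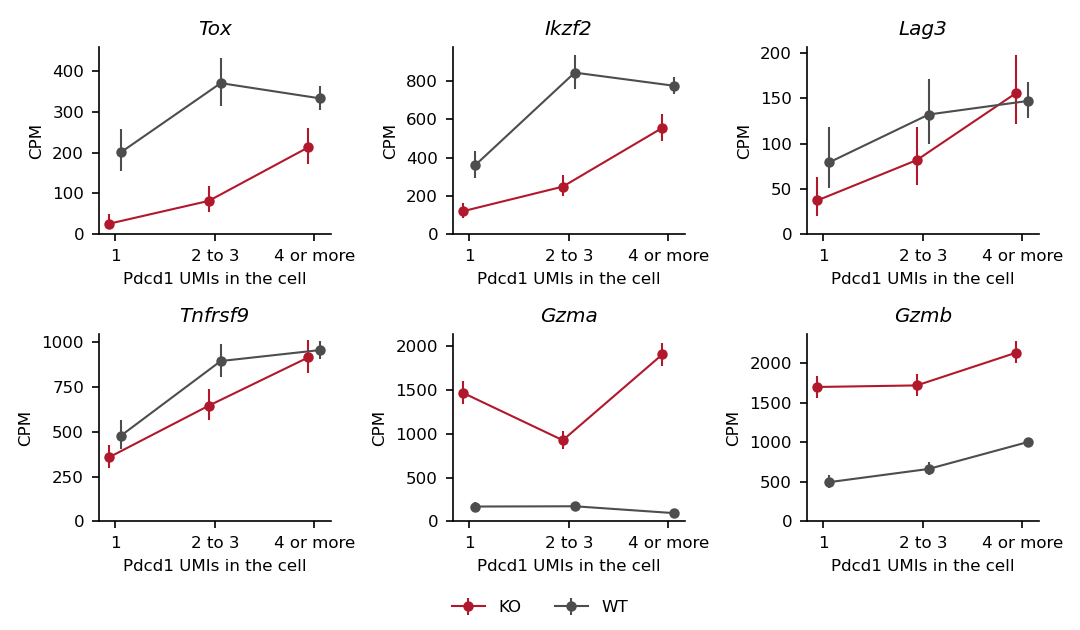
Levels in CPM of Tox, Ikzf2, Lag3, Tnfrsf9, Gzma and Gzmb in PD-1 RNA cells with 1, 2 to 3 and 4 or more Pdcd1 UMIs, in KO (red) and WT (grey). Points are summed levels and lines 95% Poisson intervals. Tox and Ikzf2 lie lower in KO in every class, Gzma and Gzmb higher, while Lag3 and Tnfrsf9 meet in the cells with 4 or more Pdcd1 UMIs.

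PD-1 RNA cells with much Ifitm1 formed most of the KO cells and few of the WT cells. With a limit of 10 Ifitm1 UMIs per 10000, chosen after the values were seen, 74 of 138 KO cells (53.6%, 44.9 to 62.1) and 32 of 306 WT cells (10.5%, 7.26 to 14.4) were Ifitm1-high. The limit cuts a range and does not define a type, and 19 KO and 17 WT cells lay between 5 and 20 per 10000. With at least 2 Ifitm1 UMIs at 2000 UMIs per cell as the limit, the shares were 56.6% of 129 KO and 10.5% of 304 WT cells.

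Of 5645 genes compared between Ifitm1-high and Ifitm1-low cells, 229 had an interval above 0 in both libraries and 149 below 0 in both. A further 885 had an interval off 0 in KO alone, 417 in WT alone, and 27 had opposite directions, among them Prf1 (log2 0.51 in KO, -1.24 in WT), Cst3 (0.54 in KO, -0.98 in WT) and Rrm2 (-0.63 in KO, 1.16 in WT), named after their values were seen. Those farthest from 0 in both libraries, a rule that fixes the shared direction, were Gzma, Itgae, Ifitm2, Il7r, Gzmd, Il18r1 (a chain of the interleukin 18 receptor), the adaptor Pag1, Cd7, Frmd4b and Cd101 on the higher side. Gzma had 2853 CPM in Ifitm1-high and 116 in Ifitm1-low KO cells (log2 4.62), and 786 in Ifitm1-high and 60.5 in Ifitm1-low WT cells (3.70). Itgae had 152 and 8.81 CPM in high and low KO cells (4.11), and 119 and 3.97 in high and low WT cells (4.90). Il7r had 455 and 134 CPM in high and low KO cells, and 486 and 137 in high and low WT cells. On the lower side stood Tox, Xcl1, Ccr7, the growth factor Areg, St6galnac3, Nrgn, Pkp4, Phactr2, Slc17a6 and Cd63. The cells rich in tumour RNA fell in the Ifitm1-low class, and high and low cells were not compared again without them. Among Ifitm1-low cells Areg and Cd63 were at log2 -0.20 and 2.26 KO over WT, but at -1.94 and -1.11 without the cells rich in tumour RNA. Tox had 26.9 and 203 CPM in high and low KO cells (-2.92), and 79.2 and 344 in high and low WT cells (-2.12). Pdcd1 itself differed little between high and low cells, with 412 and 363 CPM in KO and 747 and 668 in WT.

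Within the Ifitm1 classes some KO to WT ratios were smaller than over all PD-1 RNA cells and others were not. The classes were not matched for Ifitm1 itself, which was at log2 0.49 (0.37 to 0.62) KO over WT among Ifitm1-high cells and at 2.10 (1.66 to 2.53) among Ifitm1-low cells, with 176 CPM in KO and 41.2 in WT. Among Ifitm1-high cells Itgae was at log2 0.36 (-0.35 to 1.12) KO over WT and Il7r at -0.10 (-0.46 to 0.27), so neither interval lay off 0. Il7r was at -0.04 (-0.42 to 0.33) among Ifitm1-low cells as well, against 0.82 over all PD-1 RNA cells. Gzma kept a ratio of 1.86 (1.61 to 2.12) among Ifitm1-high and 0.94 (0.49 to 1.39) among Ifitm1-low cells, against 3.63 over all. Gzmb stood at 0.64 (0.45 to 0.83) among high and 0.68 (0.55 to 0.81) among low cells, and Tox at -1.56 (-2.71 to -0.40) and -0.77 (-1.06 to -0.48). Without the cells rich in tumour RNA, Ifitm1-low cells had ratios of -0.43 for Tox, -0.58 for Pdcd1 and 0.24 for Il7r. Those for Cblb, Ikzf2, Itga4 and Gzmb were then -0.93, -0.78, -1.01 and 0.92. Over all cells of each class Pdcd1 was at -0.86 (-1.17 to -0.54) and -0.88 (-1.10 to -0.67), Itga4 at -2.80 (-4.67 to -1.15) and -1.22 (-1.68 to -0.79), and Cblb at -1.02 and -1.22, all lower in KO in both. Ikzf2 was at 0.71 (0.15 to 1.30) among Ifitm1-high and -1.12 (-1.34 to -0.91) among Ifitm1-low cells. The WT Ifitm1-high cells are only 32 with 176786 UMIs, which limits the precision of these ratios.

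**Figure D5:**
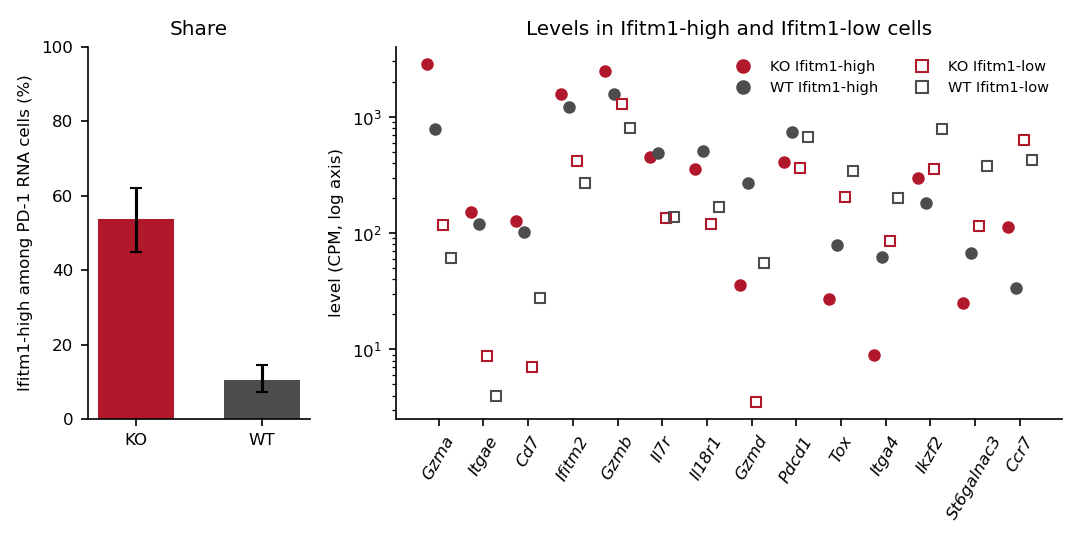
Left, percent of PD-1 RNA cells that were Ifitm1-high (at least 10 Ifitm1 UMIs per 10000) in KO and WT, with 95% exact binomial intervals. Right, levels in CPM (log axis) of 14 genes in Ifitm1-high (circles) and Ifitm1-low (squares) cells of KO (red) and WT (grey). The high share was 53.6% in KO and 10.5% in WT, Itgae and Il7r lie together by Ifitm1 class, and Pdcd1 lies together by library.

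CD8 T cells without a Pdcd1 UMI, 462 in KO and 119 in WT, give the setting. They held more RNA of Lef1, a partner of TCF-1 in resting T cells, than PD-1 RNA cells, with 402 CPM in KO and 277 in WT against 76.3 in KO and 57.5 in WT. Ccr7 did not separate them, at 414 CPM in KO and 207 in WT cells without Pdcd1 and 377 in KO and 392 in WT PD-1 RNA cells. Of the genes named above, Ccl2 and Samd4 had the opposite direction in these cells, at log2 -0.27 and -1.32. Gzma had 420 CPM in KO and 242 in WT, log2 0.80 (0.56 to 1.04), and Gzmb 773 in KO and 451 in WT, log2 0.78 (0.60 to 0.96). Ifitm1 had 1415 CPM in KO and 477 in WT, log2 1.57 (1.40 to 1.74), and Itgae 59.1 in KO and 29.2 in WT, log2 1.02 (0.34 to 1.77). Tox had 91.9 CPM in KO and 121 in WT, log2 -0.40 (-0.77 to -0.02), and Itga4 52.1 in KO and 193 in WT, log2 -1.89 (-2.25 to -1.52). Shares of cells did not all follow these levels. At 2000 UMIs Gzmb was found in 31.9% of KO cells without Pdcd1 (27.4 to 36.7) and 42.2% of such WT cells (33.1 to 51.8), Gzma in 16.8% in KO and 15.5% in WT, and Tox in 17.6% in KO and 13.8% in WT, while Ifitm1 was found in 34.9% in KO and 20.7% in WT. List medians in cells without Pdcd1 were -0.92 for inhibitory receptors, -0.66 for transcription factors and -0.75 for co-stimulatory receptors. They were 0.53 for progenitor and memory genes and 0.36 for cell cycle genes. Those of cytokines (-0.35), residence (-0.42), glycolysis (-0.16), heat shock (-0.27), class I (-0.11) and immediate-early genes (0.17) had the opposite sign to PD-1 RNA cells. With 1 library per genotype the differences between the populations were not tested, and none of these values is shown to be particular to PD-1 RNA cells.

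Receptor chains could be read in few cells of these 3' libraries. Exactly 1 beta variable gene was seen in 26 of 138 KO and 65 of 306 WT PD-1 RNA cells. Trbv19 led in KO with 7 of the 26 cells (26.9%, 11.6 to 47.8), and Trbv12-2 in WT with 16 of the 65 (24.6%, 14.8 to 36.9). Exactly 1 alpha variable gene was seen in 25 KO and 44 WT cells. Trav5-4 led in KO with 9 of the 25 (36%, 18.0 to 57.5). Trav16n led in WT with 22 of the 44 (50%, 34.6 to 65.4) and was seen in 3 of the 25 KO cells. Trbc1, 1 of the paired constant regions of the beta chain, was found in 51.4% of KO and 83.0% of WT cells, at 607 and 1091 CPM, whereas Trbc2 was found in 97.1% of both. The constant regions are near-identical, so reads may be split between them, and expanded clones cannot be told apart from variable gene preference here.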

How the data were processed

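Single-cell RNA of 2 libraries, 1 per genotype, was taken as the deposited matrices of UMI counts per gene and cell, whose headers name Cell Ranger 8.0.1. Per the submitters' processing notes Cell Ranger 6.0.1, Seurat 4.0.3 and 4.0.4 and the build mm10 were used, and the sources used here do not give the annotation release of the counting. Raw counts of all cells that passed the gate were summed per library with Python 3.11.15, NumPy 2.4.6, SciPy 1.17.1 and pandas 2.3.3. Ratios carry exact conditional intervals and levels exact Poisson intervals (95%). The ratio intervals were checked on simulated Poisson counts, the model they assume. This does not cover UMIs that gather in few cells. A floor of 3 UMIs per library stands for 0. Shares were also taken with cells thinned to 2000 UMIs. No doublet caller was run, and leaving out cells above the 90th percentile of UMIs was an alternative. Immunoglobulin, T cell receptor, mitochondrial, ribosomal and haemoglobin genes were left out of the counts past 2-fold. Named genes are the 12 per direction whose interval bound nearest 0 was largest in size, the 4 highest and lowest of each list, and a set of T cell genes. Some further list members, such as Lck, Irf7, Nfatc2 and Nfatc3, are named for their function after their values were seen. The members and lists were chosen with earlier results of these data known. Samples were not tested, since each genotype has 1 library. Results for a few genes are not reported here.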

Additional observations from a re-analysis of the deposited data

Results flagged for a closer look

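Some genes stood in opposite directions, KO over WT, in PD-1 RNA cells and in all CD8 T cells without Pdcd1, with both counting intervals off 0, and the difference was not tested. Cells without Pdcd1 hold more Lef1 RNA, so their makeup differs. Among cytokines, Xcl1 was at log2 0.89 in PD-1 RNA cells and -1.69 in cells without Pdcd1, Ifng at 0.36 and -0.57, and Ccl2 at 2.55 and -0.27. Among homing and activation genes, the chemokine receptor Ccr2 was at 0.95 and -0.57, Cxcr6 at 0.18 and -0.36, Itgb1 at 0.24 and -0.76, the adhesion receptor Cd44 at 0.38 and -0.54, and Slamf7 at 0.83 and -0.51. Gzmf was at -0.30 and 0.95, the granule proteoglycan Srgn at 0.10 and -0.19, and Gzmd at -1.89 with 20 KO and 0 WT UMIs in cells without Pdcd1. The AP-1 subunits Jun and Junb were at -0.34 and -0.19 in PD-1 RNA cells, against 0.65 and 0.16 in cells without Pdcd1. Samd4 was at 2.67 and -1.32, the interferon-induced Bst2 at 0.97 and -0.45, and the topoisomerase Top2a at 0.35 and -0.47. Of metabolic and chaperone genes, Tpi1 was at 0.46 and -0.75, Gapdh at 0.19 and -0.10, Cox7a2 at 0.23 and -0.31, Hspa5 at 0.32 and -0.51, Hspd1 at 0.71 and -0.43 and Hsp90ab1 at 0.28 and -0.13. The immunoproteasome subunits Psmb8 and Psmb10 were at 0.15 and 0.35 in PD-1 RNA cells, against -0.27 and -0.39 in cells without Pdcd1.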

How the results depend on the processing

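No paired analysis was possible because each genotype is 1 library. The Pdcd1 share of gated CD8 T cells was lower in KO under each of the 7 alternatives for which it was recomputed. Of 809 gene ratios recomputed over 94 named genes, 612 stayed within their counting interval, 187 moved beyond it in the same direction or from an interval that included 0, and 10 changed sign. The stricter cell filter left the PD-1 RNA cells as they were, so its ratios could not move, and they count among the 612. Leaving out cells rich in tumour RNA was chosen after seeing the data. Where a value moved, the cause was not tested.

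With cells thinned to 2000 UMIs before gating, PD-1 RNA cells were 0.756% of kept KO and 1.87% of kept WT cells and 56.0% of gated WT CD8 T cells, 18 genes were at least 2-fold higher and 74 lower, and medians were 0.24 for granule, 0.39 for interferon and 0.79 for cell cycle genes. Ccl2 was then at -0.021, Gzmd at 0.73, Prf1 at 0.069 and Tcf7 at -0.21. With at least 4 UMIs of Cd8a and Cd8b1 the shares were 30.8% of gated KO and 2.62% of kept WT cells. With at least 2 Pdcd1 UMIs they were 15% of gated KO and 59.5% of gated WT cells, and 0.712% of kept KO and 2.59% of kept WT cells. Then 40 genes were higher, medians were -0.36 for transcription factors, -0.094 for granule and 0.020 for interferon genes, and Cst3 was at -0.26. Without any Lyz2 UMI the kept shares were 0.681% in KO and 1.24% in WT, and medians were 0.17 for progenitor, -0.048 for granule and 1.43 for cell cycle genes. Ccl2 was then at -0.59, Cxcr6 at -0.024 and Tnfrsf9 at 0.00074. Without cells above the 90th percentile of UMIs the kept shares were 0.847% in KO and 2.72% in WT, 33 genes were higher, and medians were -0.27 for transcription factors, -0.057 for granule and 0.64 for cell cycle genes, with Ccl2 at -0.47. With each cell weighted equally the medians were -0.36 for transcription factors, 0.017 for granule and -0.0057 for interferon genes. With at least 20 UMIs and no CPM minimum 232 genes were higher and 479 lower. Without the cells rich in tumour RNA 35 were higher and Ccl2 was at -0.53.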
